A study of Mus musculus with 12 samples.

Results

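Genes named as RING finger (RNF), TRIM or F-box (FBXO, FBXW, FBXL) proteins were read across cultured mouse aortic endothelial cells with and without the transcription factors Ets1 and Ets2. Members were genes whose symbol starts with Rnf, Trim, Fbxo, Fbxw or Fbxl followed by a number and that had an array probe set annotated to exactly 1 symbol. They numbered 145 of the 11015 genes tested: 60 RNF, 32 TRIM, 28 FBXO, 10 FBXW and 15 FBXL genes, measured by 240 probe sets. Of the 145, 82 had 1 probe set and 63 had several, at most 5. No filter on low values was applied, and 75 of the members were dimmer than the median gene. Each gene was represented by its brightest probe set unless stated otherwise.

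Ubiquitin ligases choose which proteins are tagged with ubiquitin. Most RNF and TRIM proteins carry a RING domain that brings the ubiquitin-loaded conjugating enzyme to the substrate, and RING-between-RING members first take the ubiquitin onto themselves. F-box proteins are the exchangeable substrate receptors of the SCF complex, in which a cullin holds a RING subunit at one end and Skp1 at the other. The FBXW class reads substrates through WD40 repeats and the FBXL class through leucine-rich repeats, while the FBXO class holds the remaining domain types. In vessels, ligases of these families are known for setting the life span of Notch, Smad and hypoxia pathway proteins, and Ets1 and Ets2 are ETS factors that bind DNA around a GGAA core.

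The cells came from mice aged 4 weeks and all carried a lentivirus with eGFP. WT cells were Ets1+/+; Ets2+/+ and received eGFP alone. Ets1KO cells were Ets1-/-; Ets2fl/fl and also received eGFP alone, so they carried floxed Ets2 alleles that WT cells did not. Ets2KO cells (Ets1+/+; Ets2fl/fl) and DKO cells (Ets1-/-; Ets2fl/fl) received eGFP with Cre recombinase, so loss of Ets2 cannot be told apart from Cre. Titles and genotypes were followed for the Ets1KO and Ets2KO samples, whose short descriptions call them wild type. Titles number the samples as biological replicates, but nothing says that they came from separate animals or cultures, so p-values measure the spread between these samples only. Mice carried a germline-null or floxed allele, and the sources used here give neither sex nor pooling of animals.

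Values were log2 expression per probe set. In all, 11 arrays were used, 3 in each of WT, Ets1KO and Ets2KO and 2 labelled DKO, because the third DKO column was the mean of the first and second. Array medians were 8.28 to 8.30 in DKO and 9.05 to 9.15 elsewhere, so comparisons with DKO are given after subtracting from each array its median over all probe sets, called relative to array medians here, with the deposited scale beside them. After that subtraction the median of all genes was still 0.18 higher in DKO than in WT, against -0.61 as deposited. The brightest Ets1 probe set read 10.26, 9.84 and 10.06 in WT, 8.31, 8.76 and 9.17 in Ets1KO, and 10.02 and 10.29 in the arrays labelled DKO. In that probe set the DKO arrays were therefore not low for Ets1. The other Ets1 probe sets differed between DKO and WT by -2.00, -0.61 and -0.02 as deposited. Relative to array medians these differences were -1.20, 0.18 and 0.78, so the probe sets disagreed. The brightest Ets2 probe set read 9.63, 9.35 and 10.13 in Ets2KO and 11.02 and 9.63 in DKO against 9.72, 10.01 and 10.70 in WT. Which exons the probes cover is not given. "DKO" below means the arrays labelled so. Xist and Y-linked genes had a male-like pattern in the first WT array and all 3 Ets2KO arrays, and a female-like one in the rest. Of the 12 endothelial markers listed, 4 were measured (Egfl7, Eng, Flt1 and Kdr), and their mean lay below the array median in all 11 arrays. The means of 6 fibroblast markers lay above it in all 11 arrays, at 0.66 to 1.09 in WT, 0.13 to 0.92 in Ets1KO, 0.69 to 1.41 in Ets2KO and 1.21 to 1.86 in DKO. The 6 did not go together. Col1a1, Col1a2 and Pdgfra lay above the median in every array and Lum below it in every array (4.94 to 6.94 as deposited). Dcn and Dpt lay on both sides. The means of 4 measured adipocyte markers were -2.06 to 2.88 in WT, -3.20 to -2.86 in Ets1KO, 1.08 to 4.13 in Ets2KO and -2.26 to 0.63 in DKO. In bulk RNA, fewer cells of a type and less RNA per cell cannot be told apart.

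Promoter sequence was looked up because the knocked-out factors bind DNA. Promoter entries, read beside RefSeq gene positions on GRCm38.p6, gave the 250 bases before an annotated start for 115 of the 145 members. Of these, 5 are shown: Rnf130, the 1 member that passed the test in Ets1KO; Rnf216 and Rnf7, which like Rnf130 read lower relative to array medians in every array lacking Ets1 by label (Rnf216 and Rnf130 also as deposited, as did Rnf40, which has 2 promoter entries and is not shown); Rnf26, whose probe sets all fell in DKO; and Fbxw11, which holds a longer ETS-type motif. Starts are those of the promoter entries and can lie inside the gene, as for Rnf216, whose RefSeq gene ends at chr5:143113041. Capitals mark GGAA or its reverse complement TTCC, and each run is 5′ to 3′ on the gene's strand. Rnf130 is at chr11:50025081-50025330 on the plus strand, Rnf216 at chr5:143113021-143113270 on the minus strand, Rnf7 at chr9:96478676-96478925 on the minus strand, Rnf26 at chr9:44113052-44113301 on the minus strand and Fbxw11 at chr11:32642305-32642554 on the plus strand.
Rnf130: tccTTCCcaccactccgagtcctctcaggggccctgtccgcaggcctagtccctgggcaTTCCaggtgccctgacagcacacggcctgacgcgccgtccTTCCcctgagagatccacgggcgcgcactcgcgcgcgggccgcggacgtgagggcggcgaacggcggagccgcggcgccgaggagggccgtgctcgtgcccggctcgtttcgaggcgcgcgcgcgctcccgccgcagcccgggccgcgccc
Rnf216: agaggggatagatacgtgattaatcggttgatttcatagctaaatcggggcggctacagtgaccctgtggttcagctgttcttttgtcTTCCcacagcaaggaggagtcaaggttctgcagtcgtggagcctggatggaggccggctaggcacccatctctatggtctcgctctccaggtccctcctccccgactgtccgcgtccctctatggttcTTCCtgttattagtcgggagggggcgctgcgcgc
Rnf7: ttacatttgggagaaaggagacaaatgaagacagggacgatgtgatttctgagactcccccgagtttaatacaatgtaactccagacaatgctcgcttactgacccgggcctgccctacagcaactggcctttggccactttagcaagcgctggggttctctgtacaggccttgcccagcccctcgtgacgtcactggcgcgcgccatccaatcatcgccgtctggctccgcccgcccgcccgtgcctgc
Rnf26: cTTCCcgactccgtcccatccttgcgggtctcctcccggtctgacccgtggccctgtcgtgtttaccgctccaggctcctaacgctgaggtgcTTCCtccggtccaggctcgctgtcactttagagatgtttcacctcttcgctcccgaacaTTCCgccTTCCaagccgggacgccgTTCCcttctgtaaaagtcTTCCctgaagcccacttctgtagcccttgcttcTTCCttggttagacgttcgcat
Fbxw11: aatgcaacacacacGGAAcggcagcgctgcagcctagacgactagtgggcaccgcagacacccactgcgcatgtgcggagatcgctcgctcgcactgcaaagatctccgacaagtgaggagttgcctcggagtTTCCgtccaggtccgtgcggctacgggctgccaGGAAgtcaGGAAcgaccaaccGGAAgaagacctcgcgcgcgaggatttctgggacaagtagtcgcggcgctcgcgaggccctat
The Rnf26 window held 7 GGAA cores, Fbxw11 5, Rnf130 3, Rnf216 2 and Rnf7 0. On either strand, GGAA was in 106 of the 115 members with a promoter entry (92.2%) and in 94.1% of the 8907 genes tested that had one. Counted by promoter entry, it was in 91.2% for members, 92.9% for those genes and 93.4% of all 32851 promoters. The longer motif CCGGAAG (reverse complement CTTCCGG), which contains GGAA, was in 22 members (19.1%) and in 16.1% of those genes. By promoter entry, CCGGAAG was in 16.4% for members, 13.5% for those genes and 6.91% of all promoters. Fbxw11 carried it on the plus strand of the gene, 65 bases before the start. These are matches of letters, not sites, and the absence of a match says only that the letters are not in the window.

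The first comparison asked what changed without Ets1 alone. Rnf130, a goliath-type RING ligase anchored in endosomal membranes, fell about 11.9-fold in Ets1KO, and it was the 1 member that passed the test. Its brightest probe set read 10.95, 10.23 and 10.55 in WT and 6.82, 6.85 and 7.34 in Ets1KO as deposited. Ets2KO cells read 11.01, 11.02 and 11.66 and DKO cells 8.15 and 7.87. All 3 Ets1KO arrays lay below every other array, both DKO arrays lay between them and the rest, and the Ets2KO arrays lay just above the WT arrays. Between Ets1KO and WT the difference was -3.58 (SE 0.25, adjusted p = 0.00186, limma over all genes), and it stayed past the threshold in each of the 11 fits that left out 1 array (-3.75 to -3.39). In a fit on the 6 arrays of these groups alone, adjusted p was 0.0583.

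Read probe set by probe set, Rnf130 gave a different picture. Its dimmer probe set read 7.47, 7.34 and 7.41 in WT, 7.37, 7.25 and 7.32 in Ets1KO, 7.75, 7.35 and 7.26 in Ets2KO and 6.42 and 6.48 in DKO. WT and Ets1KO overlapped there, and the difference between them was -0.09 (adjusted p = 0.878 over all probe sets, limma). The mean of both probe sets differed by -1.84 (adjusted p = 0.00565). The dimmer probe set lay below the array median in every array, and in WT it was near the level the brightest reached in Ets1KO. Whether it could show a fall was not tested, and the sources used here do not say which transcripts each probe set reads.

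**Figure D1:**
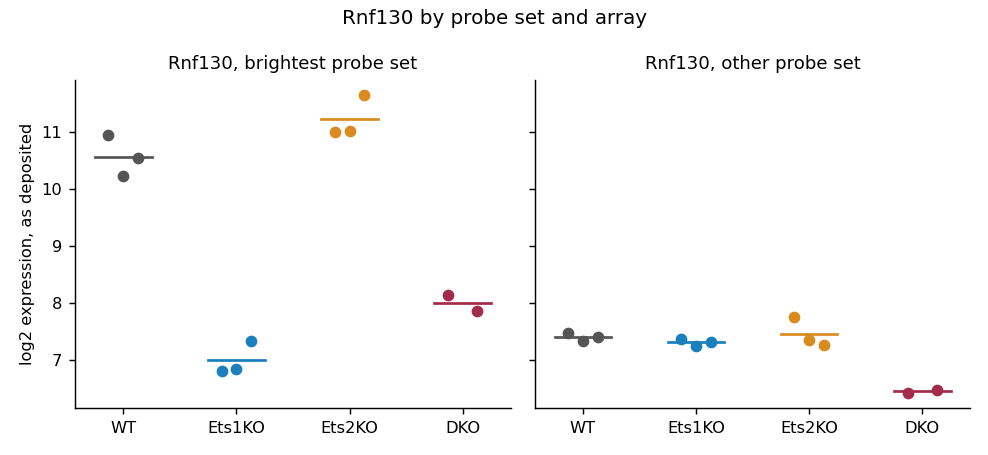
Deposited log2 expression of Rnf130 in each array for its 2 probe sets, by group, with a point for each array and a bar at the group mean. In the brightest probe set the Ets1KO arrays lie at 6.82 to 7.34 and the WT arrays at 10.23 to 10.95, while in the other probe set WT and Ets1KO overlap.

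Across all 145 members, 1 was called lower and 0 higher in Ets1KO (0.69%), where 0.00908% of all genes were called, a share made up of Rnf130 alone. At an unadjusted p under 0.05 there were 20 members and 949 genes in all. Groups did not overlap for 32 members (22.1%) against 17.9% of all genes. The median difference of the members was 0.02 and that of all genes 0.01, and 78 of the 145 differences lay above 0. The mean of the 4 measured adipocyte markers was below every WT array in all 3 Ets1KO arrays (values given above). Pparg alone was not, at 8.65 in the first Ets1KO array and 7.34 in the second WT array as deposited. The part of these markers in the differences was not tested.

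The largest differences that did not pass the test are given as values. Fbxl16, an FBXL protein, read 7.81, 7.98 and 8.66 in WT and 9.42, 9.60 and 9.60 in Ets1KO, a difference of 1.39 (SE 0.31, adjusted p = 0.297, limma) with no overlap. Trim25, which ubiquitinates the viral RNA sensor RIG-I, differed by -2.84 (SE 1.19), but its WT arrays spread from 5.27 to 9.21. Rnf128 (GRAIL), a relative of Rnf130 known from T cell anergy, differed by -1.93 (adjusted p = 0.450). Fbxo2, which binds high-mannose glycoproteins, differed by 1.30, Fbxo17 by 1.13 and Rnf125 by -1.08.

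By role, the lists held 0 called genes in Ets1KO apart from Rnf130 among 7 membrane ligases of its structural class. Medians were -0.08 for 11 DNA damage and chromatin RNFs, -0.16 for 7 RING-between-RING ligases, -0.03 for 7 endoplasmic reticulum RNFs, -0.17 for 6 interferon and antiviral TRIMs and 0.06 for 3 TIF1 chromatin TRIMs. The partners of the ligases also held 0 called genes: 14 SCF and cullin core genes (median -0.03), 30 conjugating enzymes (-0.01), 48 deubiquitinases (-0.11), 7 F-box genes under older names (0.10) and 5 genes for ubiquitin and its activating enzymes (-0.16).

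In the comparison of Ets2KO with WT, 0 of the 145 members were called by limma, where 0.3% of all genes were. At an unadjusted p under 0.05 there were 32 members and 2092 genes in all, and groups did not overlap for 41 (28.3%) against 26.5% of all genes. The median difference was 0.05 in the members and -0.02 in all genes. A fit with array weights called 10 members, and 9.48% of all genes. All Ets2KO arrays were male-like and 1 of 3 WT arrays was, and with that pattern as a covariate 0 members and 0.0363% of all genes were called. The mean of 4 measured macrophage and leukocyte markers was -2.44 to -1.98 in Ets2KO and -1.91 to -1.23 in WT, and its part, like that of the adipocyte markers, was not tested.

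Trim16, a TRIM protein without a RING domain that takes part in autophagy of damaged membranes, showed the largest fall in value. It read 9.40, 9.49 and 8.27 in WT and 7.79, 7.37 and 6.16 in Ets2KO, so the groups did not overlap. The difference was -1.94 (SE 0.56, adjusted p = 0.132, limma). Trim30a, an interferon-induced gene, differed by -1.20, with WT at 7.69, 6.85 and 5.70 and Ets2KO at 5.64, 5.57 and 5.40. Rnf128 differed by -1.48. On the other side Fbxo2 differed by 1.68, Fbxl7 by 1.64 and Rnf207, a RING protein known from heart muscle, by 1.54. Rnf130 was 0.65 higher (adjusted p = 0.218) and Rnf145, a sterol-responsive ligase of the endoplasmic reticulum, differed by -0.56 (adjusted p = 0.114).

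Of the 19 members named for well known roles, none passed the test in either single knockout. Fbxw7, the receptor for Notch, cyclin E and Myc, differed by 0.00 in Ets1KO and by 0.18 in Ets2KO. Rnf213, whose human counterpart is the moyamoya disease gene, differed by -0.15 and -0.59. Fbxw11 (beta-TrCP2), the receptor for beta-catenin and the NF-kappaB inhibitor, differed by 0.10 and -0.01. Trim28 (KAP1), a corepressor that silences retroelements, differed by -0.05 and -0.09. Fbxo32 (atrogin-1), a FOXO target in muscle wasting, differed by 0.88 and -0.54, and Fbxo5 (Emi1), an inhibitor of the anaphase-promoting complex, by -0.09 and -0.99. Trim63, the other atrophy ligase listed, was not analysed here.

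**Figure D2:**
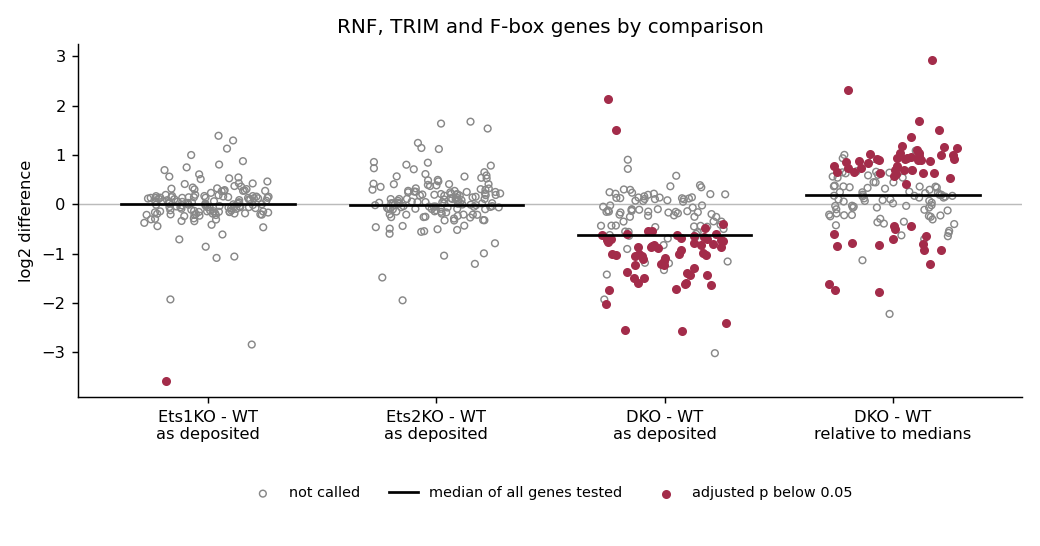
Log2 differences of the 145 members from WT in Ets1KO and Ets2KO as deposited and in DKO on both scales, with filled points for members called at adjusted p below 0.05 and a black line at the median of all genes tested. In Ets1KO 1 member is called and in Ets2KO 0, while in DKO 60 are called on each scale, 58 of them lower as deposited and 44 of them higher relative to array medians.

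Many members differed between DKO and WT, and the direction depended on the scale. Relative to array medians, 44 of the 145 were higher and 16 lower, so 41.4% were called where 30.3% of all genes were (19.8% higher, 10.6% lower). As deposited, 2 were higher and 58 lower, again 41.4%, where 45.9% of all genes were called (2.32% higher, 43.6% lower). Medians were 0.26 in the members and 0.18 in all genes relative to array medians, and DKO and WT did not overlap for 91 members (62.8%) against 53% of all genes. Quantile normalization gave 35 higher and 19 lower (37.2%, all genes 26%), and subtracting the median of the tested genes, an alternative chosen after seeing the data, gave 38 and 17 (37.9%, all genes 28.3%). A fit on the 5 arrays of these groups alone called 21 (14.5%, all genes 12.9%). Members called the same way on both scales were Rnf19a and Rnf207 higher (1.38%, against 2.32% of all genes) and 16 lower (11%, against 10.6%). The mean of the 6 fibroblast markers was above every WT array in both DKO arrays, although 1 of them, Dpt, was lower there (6.20 and 5.42 as deposited, against 7.72 to 9.33 in WT), and their part in these counts was not tested.

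By class, 21 of 60 RNF genes rose and 7 fell relative to array medians, and 11 of 32 TRIM genes rose while 0 fell. FBXO genes counted 5 up and 2 down of 28, FBXW 2 and 3 of 10, and FBXL 5 and 4 of 15. Class medians were 0.36 for RNF, 0.58 for TRIM, 0.13 for FBXO, 0.00 for FBXW and 0.20 for FBXL, beside 0.18 for all genes. As deposited, only Rnf19a and Rnf207 of the genes counted up were called higher, so these splits and the role counts below hold for the relative scale. They stand beside 19.8% higher and 10.6% lower among all genes, and 44 higher and 16 lower among the 145 members.

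Rnf19a (dorfin), a RING-between-RING ligase found in protein inclusions, was the clearest rise. Relative to array medians it read 2.66 and 2.84 in DKO, against 0.49, 0.60 and 0.23 in WT, 0.21, 0.39 and 0.16 in Ets1KO and 0.37, 0.87 and 0.20 in Ets2KO. Both DKO arrays lay above the 9 others, which overlapped one another. It differed from WT by 2.31 (SE 0.21, adjusted p = 0.0003, limma) and by 1.52 as deposited, and it was called in all 21 settings. Its dimmer probe set differed by -0.02 on the relative scale and by -0.82 on the deposited one, so the rise was seen in 1 of its 2 probe sets.

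Rnf217, a RING-between-RING ligase that acts on the iron exporter ferroportin, rose in all 3 of its probe sets relative to array medians. The brightest read 3.18 and 3.18 in DKO, 1.98, 2.02 and 2.11 in WT, 1.65, 2.30 and 1.87 in Ets1KO and 1.90, 1.91 and 1.63 in Ets2KO, with both DKO arrays on top. It differed from WT by 1.14 (SE 0.19, adjusted p = 0.0032), and the other probe sets by 1.15 and 0.98. As deposited the differences were 0.35, 0.36 and 0.18, and none was called.

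The remaining RING-between-RING ligases went both ways. Rnf31 (HOIP), the catalytic subunit of the linear ubiquitin complex, rose by 0.88 (adjusted p = 0.00445, limma), and by 0.08 as deposited. Rnf216 (Triad3) fell by 0.84 (adjusted p = 0.00232), and by 1.64 as deposited. Its relative values were -0.61 and -0.67 in DKO, 0.25, 0.13 and 0.24 in WT, 0.01, -0.06 and -0.00 in Ets1KO and 0.24, 0.17 and 0.49 in Ets2KO, so DKO was lowest, Ets1KO next, and WT and Ets2KO overlapped above. Of the 7 measured, 3 rose and 1 fell, with a median of 0.06.

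Rnf26, a ligase of the endoplasmic reticulum membrane that positions endosomes, fell in both probe sets on both scales. As deposited its brightest probe set read 8.87 and 8.16 in DKO, 11.27, 11.04 and 10.45 in WT, 10.75, 10.63 and 10.83 in Ets1KO and 10.76, 10.79 and 10.36 in Ets2KO. Its dimmer probe set read 6.67 and 5.86 in DKO and 9.47 to 10.63 elsewhere. Both DKO arrays were lowest in each, with no overlap. Relative to array medians the differences from WT were -1.61 (SE 0.29, adjusted p = 0.00425) and -3.29 (SE 0.37), and Rnf26 was called in all 21 settings. Fbxw8, the receptor that pairs with cullin 7, likewise fell in both probe sets, by 0.64 and 0.78.

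Among the 7 endoplasmic reticulum RNFs of the list, 4 rose and 1 fell. Rnf145 rose by 0.87 (SE 0.17, adjusted p = 0.00581, limma), with relative values of 3.47 and 3.88 in DKO, 2.89, 2.87 and 2.65 in WT, 2.33, 2.56 and 2.47 in Ets1KO and 2.22, 2.44 and 2.15 in Ets2KO. The DKO arrays were highest and the WT arrays next, above both single knockouts, which overlapped. As deposited DKO and WT differed by 0.08. Rnf103, Rnf185 and Rnf121 rose by 0.93, 0.73 and 0.41. Rnf5, which tags misfolded membrane proteins for degradation, fell by 0.81 (adjusted p = 0.0473), a call kept in 8 of 21 settings.

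Of the 11 DNA damage and chromatin RNFs, 5 rose and 1 fell relative to array medians, with a median of 0.62. Among all genes 19.8% were higher and 10.6% lower on that scale. The partners that ubiquitinate histone H2B were called in opposite directions, Rnf20 at 0.75 (adjusted p = 0.00397) and Rnf40 at -0.49 (adjusted p = 0.0109, limma). The dimmer probe set of Rnf20 gave -0.86, however, and the deposited scale -0.05, so its direction depended on the probe set and the scale. Rnf40 read 0.18 and 0.25 in DKO against 0.77, 0.69 and 0.66 in WT relative to array medians, with no overlap. Rnf2, a catalytic subunit of Polycomb complex PRC1, rose by 0.77 (0.53 without the second DKO array, adjusted p = 0.101) and Rnf138, which works at broken DNA ends, by 1.04. Rnf8, which marks chromatin at DNA breaks, rose by 0.65 with adjusted p = 0.0486 and kept that call in 6 of 21 settings. Its downstream partner Rnf168 differed by 0.45 (adjusted p = 0.224).

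The membrane ligases related to Rnf130 had 1 rise and 1 fall among 7 measured, with a median of -0.40. Rnf13 rose by 0.90, and Rnf130 fell by 1.78 (SE 0.29, adjusted p = 0.00283), or by 2.57 as deposited. The dimmer probe set of Rnf130 differed from WT by -0.16 on the relative scale and by -0.95 on the deposited one. Rnf207 read -0.70 and -0.32 in DKO and -3.81, -2.47 and -4.02 in WT relative to array medians, and it rose by 2.93 (SE 0.73, adjusted p = 0.0164). Its other probe set fell by 0.59, and the call was lost without the first DKO array (3.11, adjusted p = 0.0533) and without the second (2.74, adjusted p = 0.0856). Rnf181 rose by 1.52 (adjusted p = 0.00597), and by 0.72 as deposited.

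TRIM genes made up 11 of the 44 rises. Trim32, a ligase mutated in limb-girdle muscular dystrophy, read 1.70 and 1.78 in DKO, 0.05, 0.47 and 0.58 in WT, 0.20, 0.43 and 0.42 in Ets1KO and 0.51, 0.40 and 1.23 in Ets2KO relative to array medians. Both DKO arrays were highest, and Trim32 rose by 1.38 (SE 0.26, adjusted p = 0.00483, limma), or differed by 0.58 as deposited. Trim33 (TIF1-gamma), which acts on Smad4, rose in both of its probe sets, by 0.66 and 0.93, and without the first DKO array the brighter gave 0.48 (adjusted p = 0.107). Trim24, another TIF1 member, also rose (adjusted p = 0.0222), while Trim28 differed by -0.35 (adjusted p = 0.135). Of 6 interferon and antiviral TRIMs only Trim56 was called, at 0.99, and Trim21, a cytosolic antibody receptor, differed by -0.06.

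F-box receptors were called in both directions. Fbxl6 fell by 1.74 (SE 0.27, adjusted p = 0.00231), with relative values of -1.89 and -1.37 in DKO, -0.36, 0.33 and 0.37 in WT, 0.39, 0.65 and 0.99 in Ets1KO and 0.12, 0.29 and 0.32 in Ets2KO. The DKO arrays were lowest and the Ets1KO arrays highest, with no overlap between those groups and WT. Fbxo31, a receptor for cyclin D1, read -1.99 and -1.82 in DKO and -0.97 to -0.38 in the 9 others, a fall of 1.21 (SE 0.19, adjusted p = 0.00255). Fbxl15, which acts on Smurf1, fell by 0.93, Fbxw5 by 0.92 and Fbxl19, which binds CpG islands, by 0.82. Without the first DKO array Fbxl15 differed by -0.58 (adjusted p = 0.0800, limma). All 5 were also called lower as deposited.

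Rises among the receptors were called relative to array medians and not as deposited. Fbxl16 rose by 1.70 (adjusted p = 0.00605, limma), Fbxl2 by 1.18, Fbxl4, which restrains mitophagy, by 1.16, and the iron sensor Fbxl5, which targets IRP2, by 0.54. The Fbxl2 call was lost without either DKO array (adjusted p = 0.0643 and 0.0876), and that of Fbxl5 held in 8 of 21 settings. As deposited these 4 differed by 0.91, 0.39, 0.37 and -0.25. Fbxw11 read 12.35 and 12.10 in DKO and 12.13, 12.12 and 12.11 in WT as deposited, which overlap, and relative to array medians it rose by 0.90 (SE 0.13, adjusted p = 0.00162). Its 3 dimmer probe sets differed by -3.30, 0.35 and -0.21, so no single direction describes the gene. Fbxw7 differed by 0.20 (adjusted p = 0.384) and Fbxo5 by -1.13 (adjusted p = 0.370).

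**Figure D3:**
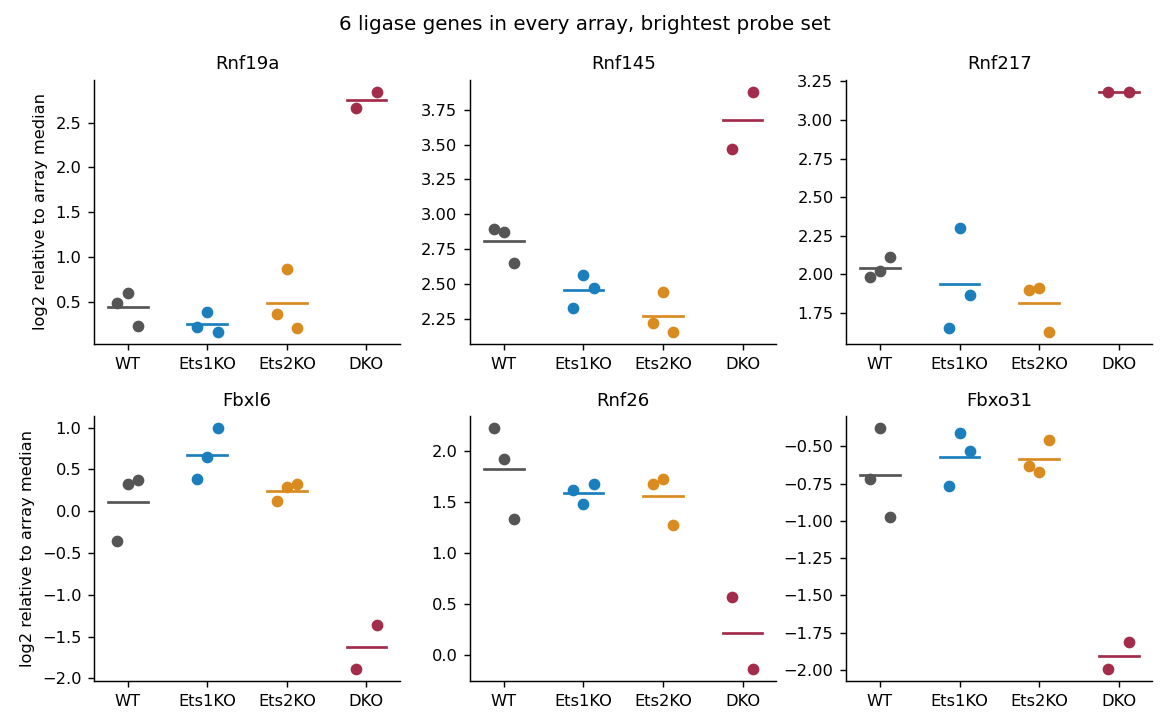
Log2 expression relative to the array median in each array for 6 members, brightest probe set, with a point for each array and a bar at the group mean. Rnf19a, Rnf145 and Rnf217 are highest in both DKO arrays, and Fbxl6, Rnf26 and Fbxo31 are lowest there.

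How far probe sets of 1 gene shared a sign in DKO depended on the scale. Among the 63 members with several, 36 (57.1%) had differences of both signs between DKO and WT relative to array medians, against 49.9% of 4785 genes in all. On the deposited scale it was 16 in DKO (25.4%, all genes 31%), 22 in Ets1KO (34.9%, all genes 28.5%) and 15 in Ets2KO (23.8%, all genes 29.5%). The intraclass correlation of probe sets within a member was 0.69 in Ets1KO, 0.72 in Ets2KO and 0.10 in DKO. Relative to array medians, different probe sets of 10 members were called in both directions in DKO (15.9% of the 63, all genes 9.49%), and as deposited those of 2 were, Rnf19a and Rnf207 (3.17%, all genes 2.88%). The 10 were Fbxw11, Fbxw2, Rnf114, Rnf121, Rnf146, Rnf187, Rnf20, Rnf207, Rnf41 and Trim2. For example, the probe sets of Rnf114 reached -2.69 and 0.91, those of Rnf146 -1.41 and 0.64, and those of Trim2 -2.08 and 0.94.

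Of the 44 members called higher, 24 had 1 probe set, 12 of the remaining 20 had a probe set with the opposite sign, and 4 had every probe set called higher (Fbxl20, Rnf103, Rnf217 and Trim33). Of the 16 called lower, 11 had 1 probe set, 1 of the other 5 had a probe set with the opposite sign, and 2 had every probe set called lower (Fbxw8 and Rnf26).

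**Figure D4:**
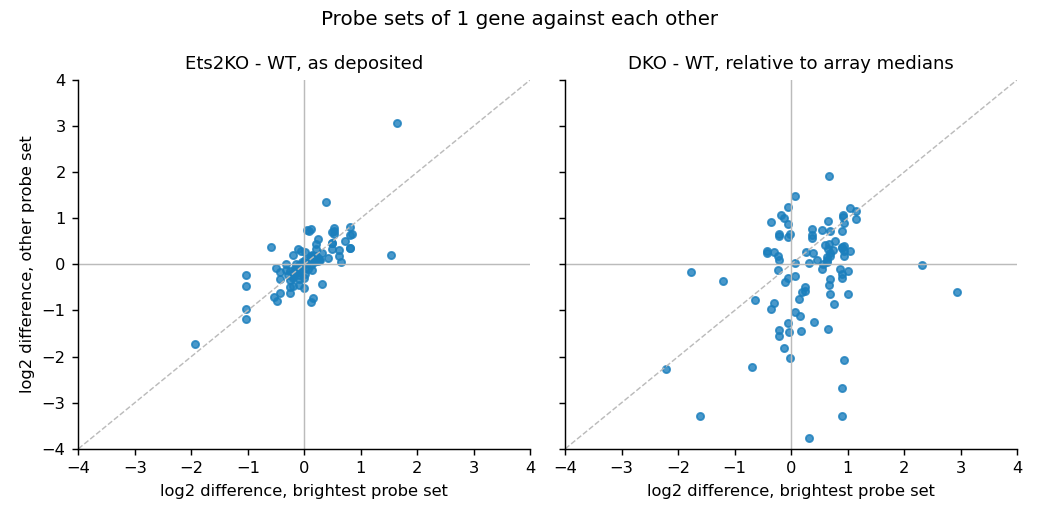
Log2 differences of the brightest probe set (horizontal axis) against each other probe set of the same member (vertical axis), with a point for each of 95 other probe sets. In Ets2KO against WT as deposited the points follow the diagonal (intraclass correlation 0.72), and in DKO against WT relative to array medians they do not (0.10).

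The comparisons of DKO with each single knockout share the DKO arrays with the one against WT and are not separate evidence. Against Ets1KO, 47 members were higher and 11 lower relative to array medians (40%, where 31.5% of all genes were called, 21.6% higher and 9.94% lower), and as deposited 2 were higher and 56 lower (all genes 44.5%, 1.72% higher and 42.8% lower). The relative count of 58 was 38 without the second DKO array. Rnf130 was 1.85 higher in DKO than in Ets1KO (SE 0.29, adjusted p = 0.00244, limma) and 1.01 higher as deposited, and its dimmer probe set differed by -0.02 and -0.86. Rnf19a rose by 2.50, Rnf113a2, a spliceosome-linked RING protein, by 1.59 and Rnf181 by 1.43. Fbxl6 fell by 2.30, Rnf26 by 1.38, Fbxo31 by 1.34 and Fbxl15 by 1.19. Without the second DKO array Rnf26 (-1.02, adjusted p = 0.0579, limma) and Rnf113a2 (1.52, adjusted p = 0.0607) were no longer called.

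Against Ets2KO, 31 members were higher and 20 lower relative to array medians (35.2%, where 32.1% of all genes were called, 20% higher and 12.1% lower), and 3 were higher and 68 lower as deposited (all genes 46.3%, 3% higher and 43.3% lower). Rnf19a rose by 2.27, Trim37, the ligase mutated in mulibrey nanism, by 1.71, Rnf181 by 1.47 and Trim65 by 1.41. Rnf130 fell by 2.45, Fbxo2 by 2.33, Fbxl6 by 1.87 and Rnf26 by 1.35. Without the second DKO array Rnf26 (-0.99, adjusted p = 0.0650, limma) and Trim65 (1.08, adjusted p = 0.0926) were not called, and Fbxo2 was called in 5 of 11 fits that left out an array. DKO arrays were female-like and Ets2KO arrays male-like, and with that pattern as a covariate 4 members were called. Between these groups the pattern and the genotype coincide, so that fit separates them only through the WT arrays, and it called 2.68% of all genes against 2.76% of the members. Rnf145 rose by 1.40 (SE 0.17, adjusted p = 0.000691, limma) and was also called as deposited, as were Rnf19a and Rnf217.

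Whether loss of Ets2 with Cre did something else in Ets1-null cells than in cells with Ets1 was tested as an interaction. It took DKO minus Ets1KO and subtracted from it Ets2KO minus WT. DKO and Ets1KO were both Ets2fl/fl and female-like. Ets2KO and WT also differed in floxed Ets2 alleles, and all Ets2KO arrays but not all WT arrays were male-like. The interaction therefore carries those differences too. Relative to array medians 17 members had a positive and 12 a negative interaction (20%, where 16.3% of all genes were called, 9.84% positive and 6.45% negative), and as deposited 2 and 47 did (33.8%, all genes 31.6%, 1.51% positive and 30.1% negative). The relative count of 29 fell by over 1.5 times when 1 array was left out, to 18 without the first Ets1KO array, 13 without the second and 14 without the third, 15 and 18 without the first and second Ets2KO array, 15 without the first DKO array and 19 without the first WT array. Rnf19a (2.46, adjusted p = 0.00153) and Rnf145 (1.76, adjusted p = 0.00233, limma) were positive on both scales. Fbxl6 (-2.43) and Fbxl15 (-1.49) were negative on both. The dimmer probe set of Rnf19a gave 0.38 relative to array medians. The interaction of Rnf130 was 1.17 (SE 0.39, adjusted p = 0.0687).

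Members were also sorted by label alone. All 5 arrays lacking Ets1 by label (Ets1KO and DKO) lay below the 6 others for Rnf130, Rnf216, Rnf40 and Rnf7 relative to array medians, 2.76% of the members against 1.43% of all genes. As deposited they did so for 8 members (5.52%, all genes 2.9%), namely Fbxo42, Rnf125, Rnf130, Rnf19b, Rnf214, Rnf216, Rnf40 and Trim25, and not for Rnf7. Rnf7 (Rbx2), the RING subunit that serves cullin 5, read 2.15, 2.36 and 2.27 in Ets1KO and 2.16 and 2.27 in DKO, against 2.65, 2.60 and 2.70 in WT and 2.63, 2.54 and 2.41 in Ets2KO. Its other probe set read 2.59 and 2.60 in DKO and 2.26 to 2.43 in WT, so only its brightest probe set separated that way. Rnf7 fell by 0.43 between DKO and WT (adjusted p = 0.0321, limma), a call kept in 9 of 21 settings. Fbxl16 lay above in all 5 on both scales (0.69% of members, against 1.03% of genes relative to array medians and 0.372% as deposited). All 5 arrays with Cre (Ets2KO and DKO) lay above the 6 without for 13 members relative to array medians, 8.97% against 3.97% of all genes, and for 0 as deposited, where 0.608% of genes did. The 13 were Fbxl20, Fbxl4, Fbxo42, Rnf121, Rnf146, Rnf2, Rnf20, Trim2, Trim23, Trim3, Trim39, Trim44 and Trim68. These are brightest probe sets. The other probe set of Fbxo42 differed by -0.71 between Ets2KO and WT on that scale. Rnf121, Rnf146, Rnf20 and Trim2 had probe sets called in both directions in DKO, as given above. Arrays with Cre lay below the 6 without for Rnf115 relative to array medians (0.69%, all genes 1.71%). As deposited they did so for Rnf115 and Trim47 (1.38%, all genes 5.81%).

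The machinery that ligases work with changed in both directions in DKO relative to array medians. Of 14 SCF and cullin core genes 2 rose and 3 fell (median 0.09), of 30 conjugating enzymes 8 rose and 2 fell (0.24), and of 48 deubiquitinases 7 rose and 3 fell (0.25). The 7 F-box genes under older names held 2 rises and 0 falls, and 5 genes for ubiquitin and its activating enzymes held 2 rises and 1 fall (median -0.00). These shares stand beside 19.8% higher and 10.6% lower among all genes.

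Promoter letters were set beside the calls in DKO as a description. Of the 22 members with CCGGAAG in the promoter window, 7 were higher and 0 lower than WT relative to array medians, namely Fbxo8, Fbxw11, Rnf114, Rnf181, Rnf31, Trim39 and Trim46. All genes tested were 19.8% higher and 10.6% lower. None of the 7 was called higher as deposited, and probe sets of Fbxw11 and Rnf114 were called in both directions. Of the 93 with a window that lacked it, 29 were higher and 12 lower. Rnf130, Rnf216, Rnf7 and Rnf26, whose windows are printed above, were among those lacking it.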

How the data were processed

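The deposited values are log2 expression per Affymetrix probe set, made with RMA per the submitters' processing notes (version not given in the sources used here), and were not renormalized except as stated. The table holds 20523 probe sets in 12 columns. Of these, 18824 carry 1 symbol in the platform annotation, 549 several and 1150 are unlisted. Members came from those with 1 symbol, and 2 further probe sets that name a member among several symbols were left out. In 20521 probe sets the third DKO column is the average of the others (tolerance 1e-05), and it was left out, which the planned design allowed for. Array number, not read depth, limits the precision.

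Linear models with 4 group means (7 residual degrees of freedom) were fitted to all 11015 genes, brightest probe set each, with limma 3.58.1 in R 4.3.3, and p-values were adjusted over all genes by Benjamini and Hochberg. "Called" means adjusted p below 0.05, and "rose" and "fell" are used of called genes. Probe sets were read from a separate fit of the same model to all 20523 probe sets, with p-values adjusted over all of them. Counts by class and role are descriptions with no test. The script was tested on simulated data. Figures were drawn with matplotlib 3.10.9 in Python 3.11.15.

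Named genes were the 8 largest called rises and falls with no overlap between groups (4 in the interaction and in DKO against each single knockout, with no overlap condition in the interaction), or, where fewer than 4 members were called, the 3 largest uncalled differences each way. Rnf130 and 19 members with well known roles were added. Other members were named after their values were seen, where a count, a role list or a probe set disagreement turned on them. Members, lists and roles were chosen with earlier results of these data known. Alternatives were the other scale, quantile normalization, another probe set rule, a filter on dim genes, fewer arrays, array weights, a replicate block and the sex-like pattern as a covariate. No pairing by replicate number was seen, though the check could not decide it.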

Additional observations from a re-analysis of the deposited data

Results flagged for a closer look

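The interaction in limma relative to array medians was called for 10 of the named members, with the limits from floxed alleles and sex-like pattern given above. They were the 4 largest called values each way, with Fbxw11 and Rnf20 added for their known roles. Among all 145 members 17 interactions were positive and 12 negative, beside 9.84% and 6.45% of all genes. The interaction was positive for Rnf128 (2.90, adjusted p = 0.0489), Rnf19a (2.46, adjusted p = 0.00153), Rnf145 (1.76, adjusted p = 0.00233), Rnf11 (1.60, adjusted p = 0.0154), Fbxw11 (0.83, adjusted p = 0.0143) and Rnf20 (0.64, adjusted p = 0.0404). It was negative for Fbxo2 (-3.57, adjusted p = 0.0377), Fbxl6 (-2.43, adjusted p = 0.00427), Rnf5 (-1.52, adjusted p = 0.0227) and Fbxl15 (-1.49, adjusted p = 0.0123). These values are from the brightest probe sets. The dimmer ones gave 0.38 for Rnf19a, 1.64 and 0.27 for Rnf11, -3.76, 0.72 and 0.41 for Fbxw11 and -1.17 for Rnf20. No single direction therefore describes Fbxw11 or Rnf20. Rnf19a, Rnf145, Fbxl6 and Fbxl15 passed in every setting run, Rnf128 in 5 of 19, Fbxo2 in 9 of 19 and Rnf20 in 6 of 20. Rnf11 passed in 17 of 20, Fbxw11 in 16 of 20 and Rnf5 in 14 of 20. With the sex-like pattern as a covariate Rnf5, Rnf11, Rnf20, Fbxw11 and Fbxo2 were not called. In Rnf128 the DKO arrays were -1.69 and -3.52 relative to array medians, so 1 of them lay within the range of Ets2KO (-4.32 to -2.87).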

How the results depend on the processing

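Counts of called members moved as follows. In this section they describe how steady the counts are, and do not set members against other genes. The share of all genes called also moved. In DKO against WT it was 30.3% relative to array medians and 45.9% as deposited. In Ets1KO against WT the count was 0 in a fit on those arrays alone and 3 with array weights (Fbxl16 and Rnf41 added to Rnf130). In Ets2KO against WT it was 10 with array weights, and 1 without the third WT array. In DKO against WT it was 36 with genes above the median level only, which tests fewer genes, and 21 on the arrays of those groups alone. Against Ets1KO it was 38 and against Ets2KO 29 above the median level, and 4 against Ets2KO with the sex-like pattern as a covariate. The interaction count was 49 as deposited, 18 by quantile normalization, 19 above the median level and 13 with the sex-like pattern. Leaving out 1 array at a time gave 1 in each fit for Ets1KO, 0 to 1 for Ets2KO, 40 to 61 for DKO against WT, 38 to 63 against Ets1KO (38 without the second DKO array), 36 to 55 against Ets2KO and 13 to 31 for the interaction (13 without the second Ets1KO array). Apart from the scaling and probe set rule, the cause of these changes was not tested.

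No pairing by replicate number was seen. The correlation of deviations from group means was -0.325 to 0.104 over 15 same-numbered pairs, and 1 of them was over 0.1, against 10 of 30 other pairs. Deviations sum to 0 within a group, so the 2 DKO arrays mirror each other. The pairs are therefore not independent, and these counts cannot decide whether the numbers pair the samples. With a replicate block the counts were 1 and 0 for Ets1KO and Ets2KO, 49, 48 and 48 for DKO against WT, Ets1KO and Ets2KO, and 18 for the interaction.

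Some named members changed sign. As deposited, DKO against WT gave Rnf2 -0.020, Rnf20 -0.046, Rnf8 -0.15, Fbxw7 -0.60, Fbxl5 -0.25 and Trim33 -0.14. Against Ets1KO that scale gave Rnf2 -0.15, Rnf31 -0.19, Fbxw7 -0.60, Fbxl5 -0.13 and Trim33 -0.19, and against Ets2KO Rnf20 -0.26, Fbxl5 -0.47 and Trim33 -0.019. The interaction as deposited gave Rnf20 -0.18, Rnf7 -0.74 and Fbxw7 -0.78. With the mean of probe sets, Rnf20 was -0.054, -0.047, -0.27 and -0.27, and Fbxw11 -0.56, -0.62, -0.40 and -0.45, in DKO against WT, Ets1KO and Ets2KO and in the interaction. With the probe set of largest spread, in the same order, Rnf20 was -0.86, -0.97, -1.06 and -1.17 and Fbxw11 -3.30, -3.69, -3.37 and -3.76, while Fbxw7 was -0.59 against WT, -0.62 against Ets1KO and -0.68 in the interaction. That rule gave 33 higher and 38 lower members in DKO against WT, and the mean of probe sets 35 and 24.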

Other observations

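Trim25 ranged from 4.30 to 9.43 over the arrays, and the spread cut across WT and Ets2KO. Its brightest probe set read 9.21, 8.02 and 5.27 in WT, 4.78, 9.43 and 7.65 in Ets2KO, 4.55, 4.67 and 4.76 in Ets1KO and 4.67 and 4.30 in DKO as deposited. Its second probe set read 8.77, 7.52 and 4.87 in WT, 4.39, 8.93 and 7.07 in Ets2KO, 4.45, 4.53 and 4.06 in Ets1KO and 4.23 and 3.76 in DKO. High and low readings fell in the same arrays in both. All 5 arrays lacking Ets1 by label were low, and so were the third WT and the first Ets2KO array.

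Over the members, the array most like each one was of its own group for 9 of 11 arrays by correlation. The third WT array was nearest to the third Ets1KO array (r = 0.939) and the second Ets2KO array to the first WT array (r = 0.951). These correlations are across genes and describe the arrays only. Fbxo5 was low in 1 of 3 Ets2KO arrays, at 7.34 against 10.55 and 10.51.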
